A study of Mus musculus with 4 samples.

Results

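The genes described here encode the subunits of oxidative phosphorylation, together with the assembly factors of complex I that share their names. They were taken by symbol, after the estimated counts of all RefSeq transcripts of a symbol had been summed, as every gene whose symbol starts with Nduf, Uqcr, Cox4i, Cox5, Cox6, Cox7, Cox8 or Atp5, plus Sdha, Sdhb, Sdhc, Sdhd and Cycs. This gave 95 of 16335 genes, counted on 136 transcripts, and 67 of the 95 had a single transcript. By role they were 7 core and 31 accessory subunits of complex I, 8 complex I assembly factors, 4 subunits of complex II, 8 of complex III, 17 of complex IV, 17 of complex V, cytochrome c, and 2 pseudogenes (Ndufs5-ps and Ndufa11b). The 31 include Ndufb4c by its symbol. Its RefSeq transcript is listed as coding, but the annotation used for lengths gave it no coding length, so its role as a subunit is uncertain. RNA came from the hypothalamus of male C57BL/6 mice that drank a 30% sucrose solution and ate a 60% fat diet for 12 weeks, the Western diet (WD), begun at 8 weeks of age. WT WD libraries came from wild-type littermates, and Tas1r3-/- WD libraries came from mice that carry a conventional knockout, in which Tas1r3 is lost in every tissue. Both groups ate WD, and a group on a normal diet is not analysed here. There were 2 libraries per group, and the labels do not say more than that they are separate samples, so p-values measure the spread between these samples.

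Oxidative phosphorylation takes place in the inner mitochondrial membrane. Complex I (NADH dehydrogenase) and complex II (succinate dehydrogenase) pass electrons to ubiquinone, complex III (cytochrome bc1) passes them on to cytochrome c, and complex IV (cytochrome c oxidase) hands them to oxygen. Complexes I, III and IV pump protons across the membrane, and complex V (ATP synthase) uses their return to make ATP. Neurons meet most of their need for ATP in this way. Several catalytic subunits are encoded by mitochondrial DNA, but all genes counted here are nuclear, and the table lists 0 mitochondrially encoded genes. Many nuclear genes of the respiratory chain carry sites for the factor NRF1 (nuclear respiratory factor) in their promoters, and coactivators of the PGC-1 family act through it.

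Promoter windows of 300 bases (250 before the transcription start and 50 after it) were taken from RefSeq on GRCm38.p6 and were found for 76 of the 95 symbols. The NRF1-type motif GCGCATGCG, read on either strand, was present in 11 of the 76 windows, that is 14.5%, against 1.95% of all 27025 symbols in the promoter table and 3.82% of the tested genes that had a window. The YY1-type motif AAGATGGCG was in 10.5% of the members' windows against 3.25% of those of tested genes. The cyclic AMP response element TGACGTCA was in 6.58% against 3.51%, and the GABPA-type motif CCGGAAGT was in 6.58% against 8.26%. These motifs do not overlap each other in the windows shown. A match is a description of letters, not of a bound factor. The 3 windows shown were chosen because they hold the same NRF1-type motif in genes with different fold changes. Cycs is the gene of cytochrome c, Uqcr11 had the lowest fold change of complex III, and Ndufa8 had the highest fold change among complex I accessory subunits. Each runs 5′ to 3′ from 180 bases before the start to 10 bases after it, on the minus strand, and the capitals mark the NRF1-type motif in all 3, the cyclic AMP response element in Cycs and the GABPA-type motif in Uqcr11.
Cycs, chr6:50566560-50566749: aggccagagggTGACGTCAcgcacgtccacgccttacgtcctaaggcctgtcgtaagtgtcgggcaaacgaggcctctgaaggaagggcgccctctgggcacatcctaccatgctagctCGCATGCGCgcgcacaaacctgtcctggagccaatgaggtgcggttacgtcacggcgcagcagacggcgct
Uqcr11, chr10:80406812-80407001: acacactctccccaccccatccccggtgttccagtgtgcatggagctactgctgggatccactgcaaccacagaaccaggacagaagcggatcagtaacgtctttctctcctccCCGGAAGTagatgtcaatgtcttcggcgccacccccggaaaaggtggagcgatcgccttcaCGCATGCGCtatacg
Ndufa8, chr2:36049329-36049518: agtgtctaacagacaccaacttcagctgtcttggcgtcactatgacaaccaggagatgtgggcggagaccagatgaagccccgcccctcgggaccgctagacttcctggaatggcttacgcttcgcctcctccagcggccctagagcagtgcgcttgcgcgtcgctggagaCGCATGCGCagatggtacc

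The libraries held 5874782 to 6273772 estimated counts. A count of 0 allows up to 3 counts, or 0.486 to 0.524 CPM (counts scaled to the size of the library), which covers counting error only. Tas1r3 itself had 6.01 and 4.45 CPM in WT WD against 1.12 and 1.23 CPM in the knockout, lower in both knockout libraries as their labels say. One library went against its tissue label. In WT WD replicate 2 the 12 hypothalamic marker genes summed to 58.8 CPM, against 1399 to 2023 CPM in the other 3 libraries, while the 6 thalamic markers summed to 1916 CPM against 454 to 586 CPM. Pomc was at 2.47 CPM there and Prkcd at 585 CPM. The sums of red blood cell markers (1960 CPM against 380 to 769 CPM) and choroid plexus markers (743 CPM against 37.5 to 58.1 CPM) were also highest in this library. Ttr gave 678 of the 743 CPM, and Folr1 and Kcnj13 were also highest there, but Kl and Clic6 were not. Neuronal markers summed to 4146 CPM against 3290 to 3711 CPM. Snap25, Syt1 and Stmn2 were highest in this library, but Rbfox3 was not. Map2 was lowest there (653 CPM against 1070 to 1295 CPM). The medians of the members and of each complex are therefore given with all 4 libraries and without WT WD replicate 2, and so is each printed log2 fold change of a member where leaving it out turned the sign or moved the value by over 1.5 times. Without it, 1 wild-type library stands against 2 knockout libraries and is assumed to vary like them.

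Most oxidative phosphorylation genes had a lower mean in Tas1r3-/- WD than in WT WD, by a small amount, and none passed the test. Of the 95 members, 93 passed the filter on low counts and were tested, and Cox7a1 and Ndufa11b did not. The fitted mean was lower in Tas1r3-/- WD for 86 of the 93, beside 51.0% of all 14340 genes tested, and the median log2 fold change (Tas1r3-/- WD minus WT WD) was -0.21, or 13.8% lower, beside -0.0057 over all genes. In edgeR's quasi-likelihood test, adjusted over all genes by Benjamini-Hochberg, 0 members passed an adjusted p of 0.05, as did 0 genes in all (0% of those tested), and the smallest adjusted p was 0.756. DESeq2 also called 0 members, and 9 genes in all. At an unadjusted p under 0.05 in edgeR there were 8 members lower and 0 higher, beside 1.88% of all genes lower and 3.50% higher. Both Tas1r3-/- WD libraries lay below both WT WD libraries for 48 members, beside 19.0% of all genes, and above them for 4 members, beside 20.6%. In size, 42 of the 93 were 10 to 20% lower, 21 were at least 20% lower, 27 lay within 10%, and 3 were at least 10% higher. In bulk tissue, fewer cells of a type and less RNA per cell cannot be told apart.

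Part of this difference lay between the wild-type libraries. WT WD replicate 2 was the highest of the 4 libraries for 62 of the 93 tested members, WT WD replicate 1 for 19, and a Tas1r3-/- WD library for 12. All members together made up 1.06% of counts in the first and 1.19% in the second WT WD library, against 0.968% and 1.01% in the knockout. The median log2 difference between the replicates was 0.17 in WT WD, with replicate 2 above replicate 1 for 68 members, and 0.05 in Tas1r3-/- WD. Without WT WD replicate 2 the median log2 fold change was -0.12, and 70 of 93 members had a lower mean, beside 49.6% of all genes. In that fit 14 members were lower at an unadjusted p under 0.05, beside 5.35% of all genes, and 1 was higher, beside 8.32%, while 0 members and 33 genes passed the adjusted threshold. Without WT WD replicate 1, which sets only the library with thalamic markers against the knockout, 28 members passed, all lower, beside 9.83% of all genes lower. The part of thalamic tissue in these values was not tested.

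**Figure D1:**
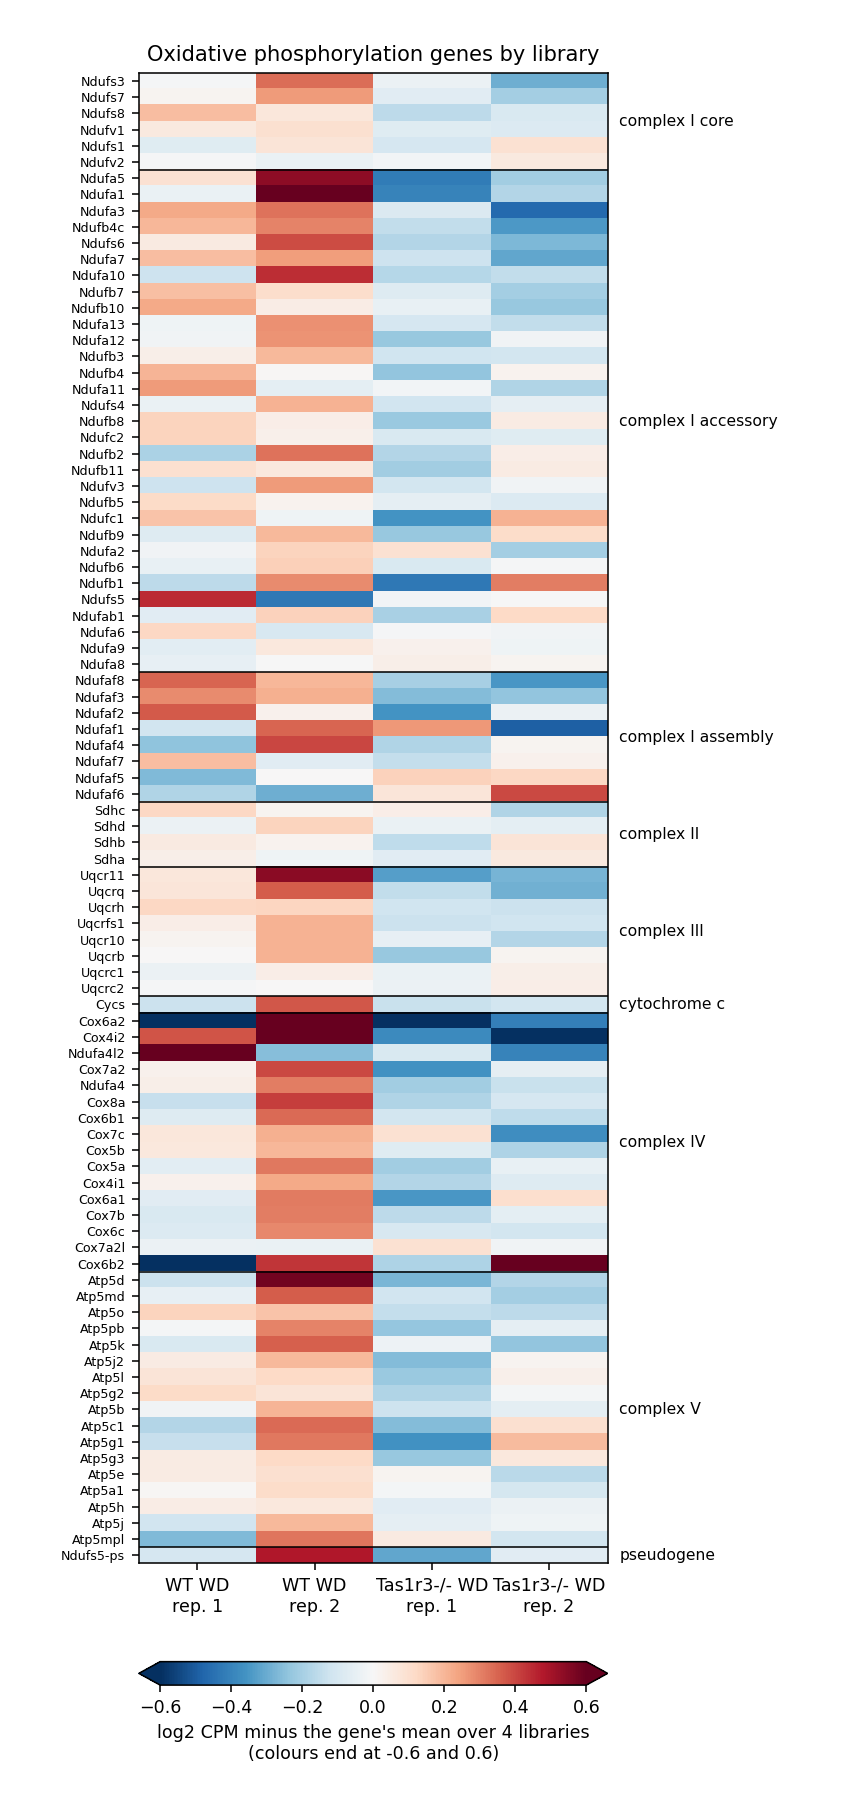
Each row is 1 of 92 tested genes, each column 1 library, and the colour is the log2 CPM minus the mean of that gene over the 4 libraries (red higher, blue lower, ending at -0.6 and 0.6). Rows are grouped by complex and ordered by fold change within it, and WT WD replicate 2 is the highest library for 62 of the 92 genes drawn.

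Levels between genes were compared per kilobase of canonical transcript, as the mean CPM per kb over the 4 libraries. The highest were Atp5b (578 CPM per kb), the catalytic beta subunit of ATP synthase, Cox4i1 (435), a complex IV subunit, and Cox6a1 (433), another complex IV subunit. By coding length in place of transcript length the same 3 genes led, with Cox6a1 first (742 CPM per coding kb), then Atp5b (702) and Cox4i1 (671). Cox4i1 and Cox6a1 differed by less than the spread of either over libraries, since Cox4i1 ranged from 382 to 507 CPM per kb. The median member stood at 79.9 CPM per kb. By class the median was 140 CPM per kb for the 12 ubiquitous complex IV subunits, 109 for complex V, 79.9 for the complex I core, 75.8 for complex III, 53.9 for complex I accessory subunits and 40.3 for complex II. It was lowest, at 8.64, for the assembly factors, which act on complex I but are not part of it. The ranking of genes was nearly the same in every library, with Pearson correlations of log2 CPM per kb of 0.966 to 0.990 between pairs of libraries over the 93 members, which share their lengths.

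The core subunits of complex I carry the flavin and iron-sulfur clusters along which electrons run. Of the 7, 6 had a lower mean in Tas1r3-/- WD. Both knockout libraries lay below both wild-type libraries for 5, beside 19.0% of all genes. The median log2 fold change of the 7 core subunits was -0.16 (-0.15 without WT WD replicate 2). Their summed level was 810 and 840 CPM in WT WD against 733 and 759 CPM in the knockout. Ndufs3 was the lowest, at 60.1 and 76.3 CPM against 58.8 and 49.1 CPM, with a log2 fold change of -0.34 (SE 0.18, and -0.15 without WT WD replicate 2). Ndufv1, which binds NADH, had 139 and 142 CPM in WT WD against 127 and 126 CPM in the knockout (log2 fold change -0.16, SE 0.12). The 2 knockout libraries of Ndufv1 lay closer to each other than to either wild-type library. Ndufs1, the largest core subunit, had 135 and 150 CPM in WT WD against 133 and 152 CPM in the knockout, so its groups overlapped, and its log2 fold change was -0.004 (SE 0.14, and 0.073 without WT WD replicate 2). Ndufv2 had the highest fold change of the core with all libraries, 0.046 (SE 0.12, and 0.029 without WT WD replicate 2).

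The accessory subunits of complex I surround the core and support its assembly and stability. Of the 31, 30 had a lower mean. Knockout libraries lay below both wild-type libraries for 16, beside 19.0% of all genes, and above them for 1 (Ndufa8), beside 20.6%. The median log2 fold change was -0.17 with all libraries and the same, -0.17, without WT WD replicate 2, where 24 of 31 had a lower mean. Of the 8 members at an unadjusted p under 0.05, 4 were counted as accessory subunits of complex I, Ndufb4c among them. Ndufa7 had 69.1 and 72.4 CPM in WT WD against 55.8 and 48.9 CPM in the knockout (log2 fold change -0.43, SE 0.13, and -0.40 without WT WD replicate 2). Ndufa3, named after its values were seen, had 51.0 and 54.6 CPM against 41.0 and 31.4 CPM (log2 fold change -0.54, SE 0.18). In both genes the wild-type libraries lay close together and above the knockout libraries.

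Ndufb4c had 55.9 and 59.8 CPM in WT WD against 43.9 and 38.2 CPM in the knockout, with a log2 fold change of -0.49 (SE 0.14) and an unadjusted p of 0.016 (edgeR, adjusted 0.756). Its sequence is close to that of Ndufb4, which had a log2 fold change of -0.21 (SE 0.19), and reads could be divided between them, so both are uncertain. The same holds for Ndufs5 with the pseudogene Ndufs5-ps. Ndufs5 had 35.4 and 19.1 CPM in the WT WD libraries while Ndufs5-ps had 49.7 and 74.5 CPM, so the 2 records moved in opposite directions between wild-type libraries. Ndufa11b, the partner of Ndufa11, had at most 0.804 CPM.

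Ndufa5 had the lowest fold change of the accessory subunits, with 40.9 and 55.9 CPM in WT WD against 28.6 and 33.2 CPM in the knockout (log2 fold change -0.65, SE 0.21, unadjusted p = 0.026 and adjusted p = 0.756 by edgeR). The log2 fold change of Ndufa5 was -0.41 without WT WD replicate 2. Most of its counts were on 1 non-coding transcript, which held 80.9% and 83.7% of the gene's counts in WT WD against 56.0% and 81.7% in the knockout. With coding transcripts alone its log2 fold change was 0.15, so the lower mean was on the non-coding transcript. Ndufab1, the mitochondrial acyl carrier protein, had 23.5 and 27.2 CPM in WT WD against 21.5 and 26.8 CPM in the knockout (log2 fold change -0.07, SE 0.19, and 0.036 without WT WD replicate 2). One non-coding transcript held 9.54% and 16.7% of its counts in WT WD against 36.0% and 35.4% in the knockout, and with coding transcripts alone the log2 fold change of Ndufab1 was -0.50, with an adjusted p of 0.768 by edgeR. Ndufs4, which helps to join the NADH-binding module to the complex, had 44.0 and 52.2 CPM against 41.6 and 43.5 CPM (log2 fold change -0.18, SE 0.15, and -0.048 without WT WD replicate 2). Ndufa8 had 72.0 and 74.5 CPM in WT WD against 76.5 and 75.6 CPM in the knockout, a log2 fold change of 0.05 (SE 0.12).

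The assembly factors of complex I ranged in log2 fold change from -0.58 to 0.51. Of the 8, 6 had a lower mean. Knockout libraries lay below both wild-type libraries for 3, beside 19.0% of all genes, and above them for 2, beside 20.6%. The median log2 fold change was -0.20, or -0.09 without WT WD replicate 2. Ndufaf3, an early assembly factor (chromosome 9, 108442729 to 108444642 of GRCm39), had 39.4 and 37.4 CPM in WT WD against 26.8 and 27.4 CPM in the knockout. That is 38.4 ± 1.37 CPM (SD, n = 2) against 27.1 ± 0.372 CPM (SD, n = 2), with replicates much closer together than the groups. Its log2 fold change was -0.50 (SE 0.14), with an unadjusted p of 0.016 and an adjusted p of 0.756 by edgeR over all genes, and was -0.54 without WT WD replicate 2. Ndufaf8 had 7.91 and 7.09 CPM in WT WD against 5.30 and 4.74 CPM in the knockout (log2 fold change -0.58, SE 0.28). Ndufaf5 lay the other way, with 19.1 and 23.1 CPM in WT WD against 25.4 and 25.1 CPM in the knockout (log2 fold change 0.26, SE 0.18, and 0.40 without WT WD replicate 2). Ndufaf6, named after its values were seen, had the highest log2 fold change of the assembly factors at 0.51 (SE 0.32), on 4.12 and 3.79 CPM against 4.98 and 6.32 CPM.

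Complex II also works in the citric acid cycle. With all libraries its median was the nearest to 0 of the complexes, but without WT WD replicate 2 that of complex IV was nearer. All 4 subunits had a lower mean. Only 1 of 4 (Sdhd) had both knockout libraries below both wild-type libraries, beside 19.0% of all genes. The median log2 fold change was -0.09 (-0.06 without WT WD replicate 2). Sdha, its flavoprotein and the most abundant of the 4, had 502 and 481 CPM in WT WD against 467 and 511 CPM in the knockout, with a log2 fold change of -0.0087 (SE 0.13, and -0.039 without WT WD replicate 2). Its knockout libraries enclosed both wild-type values. Sdhb, the iron-sulfur subunit, had a log2 fold change of -0.07 (SE 0.14). The membrane anchors Sdhc and Sdhd had log2 fold changes of -0.14 (SE 0.14) and -0.10 (SE 0.13), and Sdhd was at -0.011 without WT WD replicate 2.

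In complex III the 2 core proteins lay apart from the other subunits. Over the 8 genes the median log2 fold change was -0.24 (-0.15 without WT WD replicate 2), and 7 had a lower mean. Knockout libraries lay below both wild-type libraries for 5, beside 19.0% of all genes. Uqcrc1 had 201 and 212 CPM in WT WD against 200 and 211 CPM in the knockout (log2 fold change -0.0074, SE 0.13, and 0.031 without WT WD replicate 2). Uqcrc2 had 135 and 136 CPM against 132 and 139 CPM (log2 fold change 0.0035, SE 0.12, and 0.0086 without WT WD replicate 2). In both genes the 4 libraries overlapped. Uqcr11, a small subunit (chromosome 10, 80236542 to 80242676 of GRCm39), had 90.1 and 125 CPM in WT WD against 68.3 and 70.9 CPM in the knockout. Its means were 108 ± 24.8 CPM (SD, n = 2) and 69.6 ± 1.81 CPM (SD, n = 2), a log2 fold change of -0.63 (SE 0.19) with an unadjusted p of 0.023 and an adjusted p of 0.756 by edgeR, and it was -0.37 without WT WD replicate 2. The promoter window of Uqcr11 holds the same NRF1-type motif as that of Uqcrc1, whose means in the 2 groups were nearly equal.

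Uqcrq, which lies beside cytochrome b and is named after its values were seen, had 83.0 and 102 CPM in WT WD against 71.4 and 64.6 CPM in the knockout (log2 fold change -0.44, SE 0.16, and -0.29 without WT WD replicate 2). Uqcrh, the hinge protein that contacts cytochrome c1, had 144 and 145 CPM in WT WD against 121 and 121 CPM in the knockout. The difference of Uqcrh between the groups (log2 fold change -0.25, SE 0.12) was much wider than that between replicates, though it too did not pass the test. Uqcrfs1, the Rieske iron-sulfur protein, had 84.9 and 95.6 CPM against 75.5 and 76.1 CPM (log2 fold change -0.25, SE 0.13, and -0.16 without WT WD replicate 2).

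Cycs, which carries electrons from complex III to complex IV, was set by 1 library. It had 75.6 CPM in WT WD replicate 1, 107 CPM in WT WD replicate 2, and 75.2 and 76.7 CPM in the Tas1r3-/- WD replicates. Only WT WD replicate 2 stood apart, and the log2 fold change of -0.27 (SE 0.20) became 0.0063 without it.

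Complex IV had the lowest median log2 fold change of the complexes, -0.26, and moved furthest of the complexes when WT WD replicate 2 was left out, to -0.05. Of 16 tested genes 14 had a lower mean, and WT WD replicate 2 was the highest library for 13 of them. Over the 12 ubiquitous subunits the summed level was 1670 CPM in WT WD replicate 1 and 2070 CPM in WT WD replicate 2, against 1526 and 1629 CPM in Tas1r3-/- WD. Their median log2 difference between WT WD replicates was 0.37, wider than the -0.26 between groups. Cox4i1 had 345 and 397 CPM in WT WD against 299 and 320 CPM in the knockout (log2 fold change -0.26, SE 0.14, and -0.15 without WT WD replicate 2). Cox5b had 109 and 120 CPM against 99.5 and 91.9 CPM, and Cox5a had 78.7 and 103 CPM against 71.4 and 80.0 CPM, so Cox5b separated the groups and Cox5a did not. The log2 fold change of Cox5a was -0.26 (SE 0.18), and -0.058 without WT WD replicate 2. Cox8a had 189 and 277 CPM in WT WD against 183 and 194 CPM in the knockout, and its log2 fold change of -0.31 (SE 0.22) became -0.003 without WT WD replicate 2.

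Cox6a1 had 233 and 303 CPM in WT WD against 191 and 262 CPM in the knockout, with overlapping groups (log2 fold change -0.24, SE 0.22, and -0.039 without WT WD replicate 2). Cox7a2 had 67.5 and 87.4 CPM against 51.4 and 63.9 CPM (log2 fold change -0.43, SE 0.19, and -0.23 without WT WD replicate 2). Ndufa4, first assigned to complex I and now placed in complex IV, had 146 and 176 CPM against 123 and 130 CPM (log2 fold change -0.35, SE 0.15, and -0.20 without WT WD replicate 2). In Cox7a2 and Ndufa4 both knockout libraries lay below both wild-type libraries. Cox7a2l lay the other way with 136 and 135 CPM in WT WD against 148 and 137 CPM in the knockout (log2 fold change 0.07, SE 0.13).

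The tissue isoforms and paralogs of complex IV subunits were rare, and the log2 fold changes of the 4 tested ranged from -2.24 to 0.38. Cox4i2, the isoform of Cox4i1 known from lung and from responses to low oxygen (chromosome 2, 152595625 to 152606959 of GRCm39), had 3.78 and 5.44 CPM in WT WD against 2.09 and 1.40 CPM in the knockout, on 8 to 33 counts per library. Both knockout libraries lay below both wild-type libraries. The log2 fold change was -1.39 (SE 0.44), with an unadjusted p of 0.027 and an adjusted p of 0.756 by edgeR, and -1.10 with an unadjusted p of 0.0985 without WT WD replicate 2. Per kilobase, Cox4i2 made up 1.12% and 1.39% of the Cox4i1 and Cox4i2 total in WT WD against 0.715% and 0.450% in the knockout. Endothelial markers summed to 189 and 224 CPM in WT WD against 197 and 195 CPM in the knockout, and their part in the value of Cox4i2 was not tested.

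Cox6a2, the heart and skeletal muscle isoform of Cox6a1 (chromosome 7, 127804607 to 127805559 of GRCm39), was high in 1 library. It had 2.75 CPM in WT WD replicate 1, 26.9 CPM in WT WD replicate 2, and 2.41 and 3.86 CPM in Tas1r3-/- WD. The SD within WT WD (17.1 CPM) exceeded the mean of 14.8 CPM, and the log2 fold change of -2.24 (SE 1.08) became 0.18 without WT WD replicate 2. Cox6a2 made up 6.94% of the Cox6a1 and Cox6a2 total per kilobase in that library and 0.983% to 1.22% in the other 3. Of 5 muscle markers 3 were listed. Acta1 was at 4.94 CPM in WT WD replicate 2 and 4.39 to 6.75 CPM elsewhere, and Mylpf was at 0.482 to 0.877 CPM in all 4. Myh4 had 0.516 and 0.989 CPM in WT WD against 2.25 and 1.75 CPM in the knockout. WT WD replicate 2 is also the library with high thalamic markers (1916 CPM against 454 to 586 CPM). The parts of muscle and of thalamic tissue in the value of Cox6a2 were not tested. Cox7a1, the muscle isoform of Cox7a2, was too low to be tested, at 1.37 and 3.46 CPM against 0.964 and 0.877 CPM. Ndufa4l2, the paralog of Ndufa4, was highest in WT WD replicate 1 (4.30 CPM) and had 1.75 to 2.25 CPM in the other 3 libraries, so its log2 fold change was -0.64 (SE 0.54) with all libraries and -1.09 without WT WD replicate 2. Cox6b2, the testis isoform of Cox6b1, named after its values were seen, lay the other way with overlapping groups. It had 0.687 and 2.14 CPM in WT WD against 1.29 and 2.46 CPM in the knockout, and a log2 fold change of 0.38 (SE 0.73, and 1.41 without WT WD replicate 2).

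**Figure D2:**
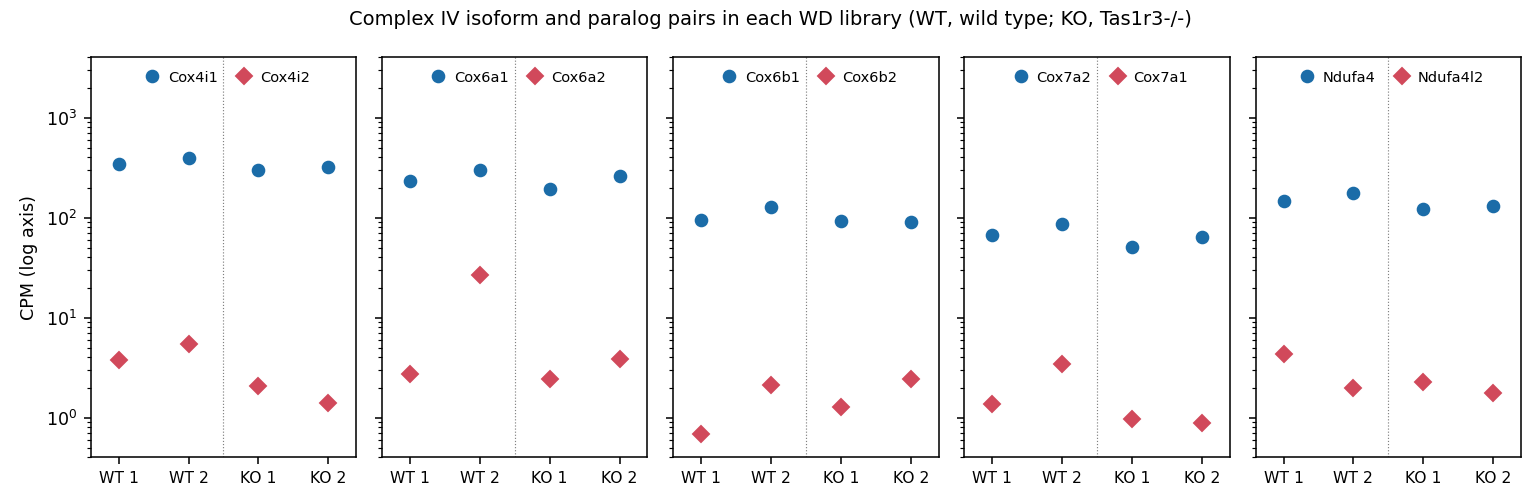
CPM on a log axis in each of the 4 libraries for 5 pairs of complex IV genes, the ubiquitous form as circles and the tissue isoform or paralog as diamonds, 1 point per library. Cox6a2 is at 26.9 CPM in WT WD replicate 2 and at 2.41 to 3.86 CPM in the other 3 libraries, while Cox4i2 is lower in both Tas1r3-/- WD libraries.

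Complex V had a lower mean for all 17 genes, and 11 had knockout libraries below both wild-type libraries, beside 19.0% of all genes. The median log2 fold change was -0.19, or -0.10 without WT WD replicate 2, which was the highest library for 16 of the 17. Atp5b had 1093 and 1279 CPM in WT WD against 1016 and 1066 CPM in the knockout (log2 fold change -0.19, SE 0.14, and -0.069 without WT WD replicate 2). Atp5a1, the alpha subunit, had 709 and 763 CPM against 702 and 656 CPM (log2 fold change -0.12, SE 0.13, and -0.062 without WT WD replicate 2). In both genes the groups did not overlap, but WT WD replicate 1 lay close to the higher knockout library. Atp5d, the delta subunit, had the lowest fold change of complex V. It had 206 CPM in WT WD replicate 1 and 337 CPM in WT WD replicate 2, against 186 and 200 CPM, and its log2 fold change of -0.49 (SE 0.26) became -0.09 without WT WD replicate 2.

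The c subunit of the rotor has 3 genes, which encode the same mature protein. Atp5g1 had 193 and 265 CPM in WT WD against 165 and 243 CPM in the knockout, Atp5g2 had 115 and 112 CPM against 94.0 and 105 CPM, and Atp5g3 had 221 and 232 CPM against 182 and 224 CPM. Their log2 fold changes were -0.17 (SE 0.26), -0.19 (SE 0.13) and -0.16 (SE 0.15). They were 0.076 for Atp5g1, -0.21 for Atp5g2 and -0.12 for Atp5g3 without WT WD replicate 2, so the sign of Atp5g1 turned. With all libraries only Atp5g2 had groups that did not overlap. Their coding sequences are alike, so reads could be divided between them. Atp5mpl had the highest log2 fold change of complex V, -0.09 (SE 0.24), which became 0.24 without WT WD replicate 2. Atpif1, which inhibits ATP synthase when it runs in reverse and lies outside the 95 symbols, had 146 and 131 CPM in WT WD against 113 and 121 CPM in the knockout (log2 fold change -0.24, SE 0.13, and -0.32 without WT WD replicate 2).

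**Figure D3:**
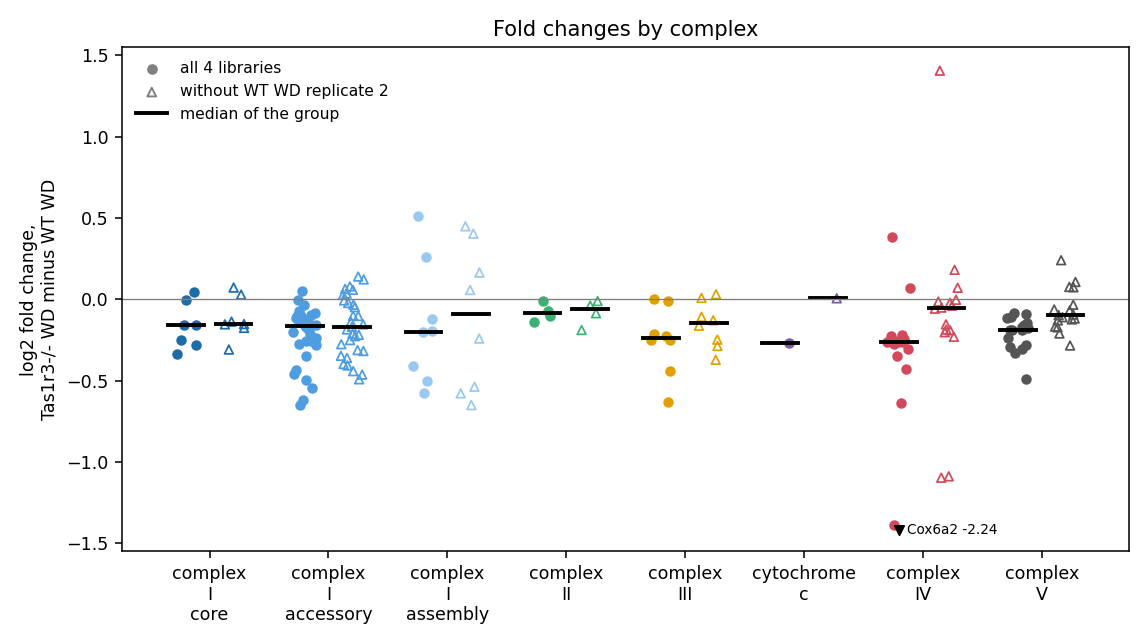
Log2 fold change (Tas1r3-/- WD minus WT WD) of each tested gene by complex, with all 4 libraries as filled circles and without WT WD replicate 2 as open triangles, and the median of each group as a bar. The median of complex IV is -0.26 with all libraries and -0.05 without WT WD replicate 2, while that of complex I accessory subunits is -0.17 in both.

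These are short mRNAs, and over all tested genes the group with the shortest transcripts also had a lower median in the knockout libraries. The median length of the canonical transcript was 1101 nucleotides for the 93 members and 3523 nucleotides for the 13971 tested genes that had a length. Over all tested genes the median log2 fold change increased with length, from -0.15 in the shortest of 10 equal length groups (up to 1382 nucleotides) to 0.22 in the longest (from 7358 nucleotides), and 53 of the 93 members were in the shortest. Without WT WD replicate 2 the ends of this trend were -0.16 and 0.21, so it did not rest on that library. Between replicates of a group the medians of the 10 groups stayed between -0.05 and 0.03. Across the members the Spearman correlation of log2 fold change with length was 0.26, and across all genes it was 0.30. These genes share the same 4 libraries, and no test was made.

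Each member was therefore set against the other tested genes whose transcripts lay within 20% of its own length. The median of these genes of like length was -0.12. The median difference of the members from them was -0.08, with 70 of 93 members below. Without WT WD replicate 2 the median difference was 0.012, with 43 of 93 below. By complex, with all libraries, the median difference was -0.06 for the complex I core, -0.07 for its accessory subunits, -0.20 for its assembly factors, -0.03 for complex II, -0.12 for complex III, -0.11 for complex IV and -0.07 for complex V. Without WT WD replicate 2 the same values were -0.026, -0.053, -0.072, -0.054, -0.012, 0.14 and 0.024. With an offset for transcript length in the model the median log2 fold change of members was -0.13 with 78 of 93 lower, beside 53.5% of all genes, and without WT WD replicate 2, a fit chosen after the data were seen, it was -0.021 with 52 of 93 lower, beside 52.5%. When coding length, chosen after the data were seen, took the place of transcript length, the median difference was -0.11, and -0.04 without WT WD replicate 2. The canonical transcript can be longer than the one counted, as with Uqcr11 at 2746 nucleotides.

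**Figure D4:**
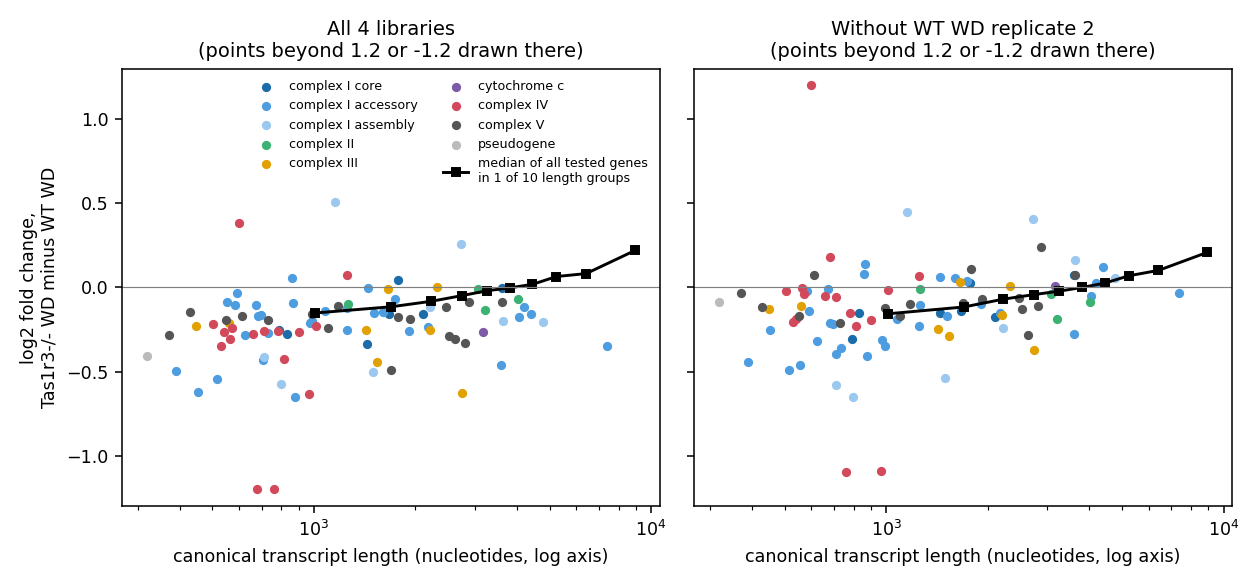
Log2 fold change (Tas1r3-/- WD minus WT WD) against canonical transcript length on a log axis, 1 point per tested member coloured by complex, with the median of all tested genes in each of 10 length groups as joined squares, for all 4 libraries and without WT WD replicate 2. Members lie mostly below the line of all genes with 4 libraries (70 of 93 below genes of like length) and on both sides of it without WT WD replicate 2 (43 of 93).

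Of the 8 at an unadjusted p under 0.05 by edgeR, 3 were also under it with the offset for transcript length. Without WT WD replicate 2 the log2 fold changes were -0.49 for Ndufa3, -0.41 for Ndufa5, -0.40 for Ndufa7 and -0.44 for Ndufb4c. They were -0.54 for Ndufaf3, -0.37 for Uqcr11, -0.29 for Uqcrq and -1.10 for Cox4i2. The sign of Ndufa5 turned with coding transcripts alone. Relative to genes of like length Ndufaf3 lay at -0.39, Ndufb4c at -0.42, Ndufa3 at -0.44, Ndufa5 at -0.48 and Uqcr11 at -0.58 on the log2 scale. Ndufa9, which had a log2 fold change of -0.0026 (0.064 without WT WD replicate 2), lay at 0.13 relative to genes of its length. Members whose promoter window held the NRF1-type motif had a median log2 fold change of -0.20 over 11 genes, from -0.63 to 0.26, beside -0.23 over the 64 tested members whose window did not. The same medians were -0.033 and -0.13 without WT WD replicate 2.

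Other genes of the pathway, outside the symbol rule, gave the following counts. Over all genes tested, 51.0% had a lower mean, and 49.6% without WT WD replicate 2. Of 39 tested assembly factors and further subunits of the chain, 27 had a lower mean and 12 a higher one, with a median log2 fold change of -0.13. Of 78 mitochondrial ribosomal proteins 66 were lower, with a median of -0.18 that was also -0.18 without WT WD replicate 2. Of 25 genes of the import machinery 21 were lower (median -0.17), and of 9 carriers and channels 7 were lower (median -0.15). None of these genes passed the adjusted threshold. At an unadjusted p under 0.05 by edgeR there were 2 lower among the first list and 4 among the mitochondrial ribosomal proteins. There were 0 among the import genes and carriers, beside 1.88% of all genes lower. Cytosolic ribosomal proteins, another class of short mRNAs (median length 1096 nucleotides), had a median of -0.04 with 66 of 105 lower, and -0.13 with 87 of 105 lower without WT WD replicate 2. Between the WT WD replicates they differed by -0.22 (replicate 2 minus replicate 1), the opposite direction to the members.

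Of the 17 regulators of nuclear genes for mitochondria, 12 were higher on average in the knockout, beside 7029 of the 14340 genes tested. Their median log2 fold change was 0.10 (0.06 without WT WD replicate 2). For 6 of the 17 both knockout libraries lay above both wild-type libraries, beside 20.6% of all genes. Pprc1, a coactivator related to PGC-1, had 41.2 and 41.2 CPM in WT WD against 52.1 and 57.9 CPM in the knockout, a log2 fold change of 0.41 (SE 0.13) with an unadjusted p of 0.024 and an adjusted p of 0.756 by edgeR. It was the only 1 of the 17 under 0.05. Ppargc1a, which encodes PGC-1 alpha, had 35.1 and 40.7 CPM against 49.5 and 44.7 CPM (log2 fold change 0.31, SE 0.15). Nrf1 had 20.5 and 16.2 CPM against 22.3 and 19.5 CPM, with overlapping groups. The median transcript length of the 17 was 3901 nucleotides, beside 3523 nucleotides over the tested genes that had a length. With the offset for transcript length their median log2 fold change was also 0.10.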

How the data were processed

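RNA from the hypothalamus was sequenced in 4 libraries. Per the labels and the study's methods, reads from Ion Torrent runs were mapped by the authors (STAR within Partek Flow, build mm39), who deposited an estimated count for each RefSeq (release 93) transcript, not normalized. Estimated counts were summed by symbol for 30886 of 30930 transcripts. The other 44, with 0.385% to 2.53% of counts, name no gene and were left out. Sums were rounded and tested with edgeR 4.0.16 (quasi-likelihood test, TMM, filterByExpr, Benjamini-Hochberg adjustment over 14340 genes), and tested on simulated data. CPM are on the TMM scale. DESeq2, limma-trend, other scalings and filters, a transcript length offset (loess span 0.3) and each library left out in turn were alternatives. The design assumed lengths in the files. They hold none, so lengths are those of canonical GENCODE M39 transcripts on GRCm39, matched by symbol for 15837 of 16335 genes and for 95 of 95 members.

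The members and lists were chosen with earlier results of these data known. Genes named are central subunits, the highest and lowest of each class at 5 CPM or more, the 5 smallest p-values and the 3 highest levels per kilobase. Cox6b2, Ndufa3, Ndufa9, Ndufaf6, Ndufb4, Ndufs5, Uqcrq, Ppargc1a and Nrf1 were chosen after their values were seen. Marker lists for other cell types gave sums over libraries of 3290 to 4146 CPM for neurons, 1222 to 1557 CPM for astrocytes, 4535 to 5735 CPM for oligodendrocytes, 182 to 216 CPM for microglia and 72.5 to 97.7 CPM for ependyma and tanycytes. The study's methods state more mice per group than the libraries used here. Values of 1 of the members are not reported here and were left out of the plot by library.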

Additional observations from a re-analysis of the deposited data

How the results depend on the processing

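The comparison has 2 libraries per group, so 1 library can decide a value, and WT WD replicate 2 did. The count of called members was 0 to 28 as each library was left out in turn, with 28 only without WT WD replicate 1, and 0 to 9 of them also had a fold change of at least 1.5. The other ranges, from the lowest to the highest value with 1 library left out, were as follows. Members at an unadjusted p under 0.05 were 0 to 44 lower and 0 to 1 higher. Members with both knockout libraries below all wild-type libraries were 55 to 73, and above them 4 to 12, where fewer libraries to separate can alone raise both counts. The shares of all genes for these counts are not given here. The median log2 fold change of members was -0.31 to -0.12, and -0.20 to 0.012 relative to genes of like length. By class it was -0.090 to -0.035 for complex II, -0.41 to -0.054 for complex IV, -0.30 to -0.097 for complex V and -0.49 to 0.0063 for Cycs.

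With an offset for transcript length, 4 members were lower at an unadjusted p under 0.05 by edgeR. In that fit 23 lay below and 9 above all wild-type libraries, and the shares of all genes are not given here. The medians of complexes II and V were -0.048 and -0.093. With the offset and without WT WD replicate 2, chosen after the data were seen, the median of members was -0.021, with 52 of 93 lower, 3 lower at an unadjusted p under 0.05, and 0.013 relative to genes of like length. DESeq2 had 4 members lower at an unadjusted p under 0.05. The labels do not say what the replicate numbers mark, so the samples were not paired. Same-numbered libraries deviated together with a correlation of 0.0821 over genes. With 2 pairs, and thalamic markers in WT WD replicate 2, this value cannot decide whether they were paired. A fit with a replicate block called 0 members, with a median of -0.21. The replicate block with the length offset had 2 members lower at an unadjusted p under 0.05 and a complex V median of -0.083. No other setting moved these counts by over 1.5 times, or these medians by more than the spread between replicates. RLE size factors, total counts, limma-trend, both filters, coding transcripts alone, and narrower choices of genes of like length were run.

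The sign of some single-gene log2 fold changes turned. Most of these were small with all 4 libraries, but Ndufa5 (-0.65), Cox6a2 (-2.24) and Ndufa4l2 (-0.64) were not. Ndufa5 was 0.15 with coding transcripts alone. Uqcrc2 was -0.0014 in DESeq2, -0.0028 with RLE size factors and -0.0011 with at least 10 counts in every library. With total counts Ndufs1 was 0.0058, Sdha 0.00036 and Uqcrc1 0.0025, and with no filter Ndufs1 was 0.00019. With the length offset Ndufab1 was 0.011 and Uqcrc1 0.077, and with the replicate block added Ndufab1 was 0.0083, Sdhd 0.0012 and Uqcrc1 0.077. With 1 library left out, the ranges that crossed 0 were -0.48 to 0.082 for Atp5g1, -0.34 to 0.24 for Atp5mpl, -3.10 to 0.18 for Cox6a2, -0.49 to 0.0063 for Cycs, -1.09 to 0.027 for Ndufa4l2, -0.24 to 0.080 for Ndufab1, -0.11 to 0.089 for Ndufs1, -0.082 to 0.054 for Sdha, -0.19 to 0.040 for Sdhb, -0.052 to 0.031 for Uqcrc1 and -0.041 to 0.041 for Uqcrc2. The causes were not tested. Counts set the limit for rare genes such as Cox4i2 and Ndufaf6.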
